A study of Mus musculus with 45 samples.

Results

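Gene expression in the kidney was compared between mice fed a high-cholesterol diet with the Gl-2 extract (HCD+Gl-2) and mice fed the Control diet. The comparison used 6 of the 45 arrays of the series, chosen by their labels alone: 3 of kidney HCD+Gl-2 and 3 of kidney Control. All mice were male C57BL/6, 7 weeks old by the labels, and were killed on day 43. Control mice received the AIN-93 diet. HCD+Gl-2 mice received the same diet with 0.5% cholesterol and 1.0% of a lyophilized hydroalcoholic extract of Ganoderma lucidum, a medicinal mushroom, grown on oak sawdust to which 10 mM acetylsalicylic acid had been added. The groups therefore differ in both the cholesterol and the extract, and the effects of the 2 cannot be told apart in this comparison. Kidneys of HCD+Gl-1 mice (0.5% cholesterol and 1.0% of the extract of mushrooms grown without acetylsalicylic acid) and of HCD+Sim mice (0.5% cholesterol and simvastatin, 0.03 g/100 g) served as further comparisons. By the methods, a diet group had 8 mice. RNA of 4 mice made pool A, RNA of the remaining 4 made pool B, and both pools mixed made pool C. Each group therefore has 3 arrays but 2 separate pools, and no array shows a single mouse.

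The description fields of the kidney samples name brain tissue, while the titles and tissue fields name kidney, so the tissue was checked against cell markers. Of 18 proximal tubule markers, 17 were higher on all 6 kidney arrays than on all 30 liver and brain arrays, as were 5 of 5 loop of Henle and 8 of 8 collecting duct markers. All 6 neuron markers were lower than on every brain array, and all 6 hepatocyte markers were lower than on every liver array. The arrays gave kidney profiles in both groups. Array medians lay between 6.84 and 6.88 on the log2 scale, and arrays within a group correlated at 0.9957 to 0.9968 across genes.

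Many of the genes that differed belong to the early response of cells to stimulation. Immediate early genes are transcribed within minutes of a signal without new protein synthesis, and many encode transcription factors of the AP-1, Egr and Nr4a families. Others encode phosphatases and RNA-destabilising proteins that end the signal. The heat shock response is a separate programme, in which the factor Hsf1 raises chaperones that refold damaged proteins. The circadian clock runs in kidney cells as a loop in which Arntl (Bmal1) with Clock or Npas2 drives Per, Cry and other genes whose products repress the loop.

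A gene was called differentially expressed (DE) when its log2 fold change exceeded 0.7 in size and its limma p, adjusted by Benjamini-Hochberg over all genes, was 0.05 or less. Of 22080 genes, 48 were DE (0.217%), 44 of them higher in HCD+Gl-2 (0.199%) and 4 lower (0.0181%). The adjusted p alone was passed by 193 genes (0.874%), 111 higher (0.503%) and 82 lower (0.371%). In counts of list members below, rose and fell mean that a gene passed the adjusted p alone in that direction. These counts are to be set against the 0.503% and 0.371% of all genes. The lists were chosen with earlier results of these data known, which can by itself raise such counts. The count of 193 was 94, 95 and 96 without Control pool A, Control pool B and HCD+Gl-2 pool C, while the 48 DE genes became 40 to 51 without any 1 of the 6 arrays. The median log2 fold change of all genes was 0.0037. In each of the 48 DE genes the values of the 2 groups did not overlap, against 9.36% of all genes with every HCD+Gl-2 array above every Control array and 8.96% with every one below. The DE genes were called on these same values, so the call itself favours such separation and it is no further support. With 3 arrays against 3 an exact permutation test (two-sided) cannot go below a p of 0.1, so calls rest on the fit across genes. In whole tissue, fewer cells of a type and less RNA per cell cannot be told apart.

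**Figure D1:**
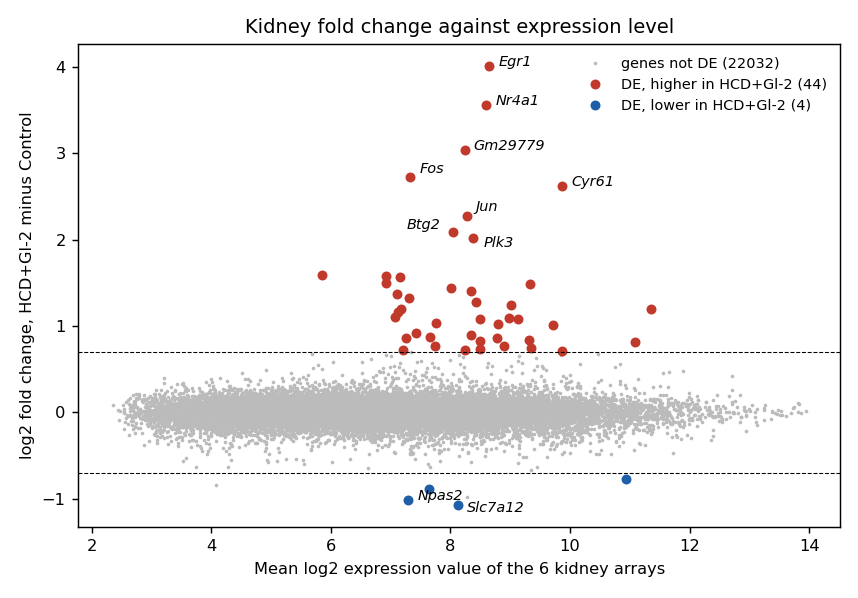
Each point is a gene, with its mean log2 value over the 6 kidney arrays on the x axis and its log2 fold change, HCD+Gl-2 minus Control, on the y axis. Dashed lines mark 0.7 and -0.7, and the 44 higher DE genes (red) reach 4.01 while the 4 lower ones (blue) reach -1.07.

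The stretches before the transcription start of 6 genes, picked from those with large increases, are shown, because the members of these gene families are known to share short control elements. The 6 do not stand for the genes not shown. The sequences are from RefSeq (GRCm38.p6), the 200 bases before the annotated start, 5′ to 3′ on the gene's strand, and capitals mark a match on either strand to a cAMP response element half-site (TGACG), a CArG box (the binding site of serum response factor) or, in Hspa1a, a heat shock element (GAANNTTC).
Fos, chr12:85473690-85473889, plus strand: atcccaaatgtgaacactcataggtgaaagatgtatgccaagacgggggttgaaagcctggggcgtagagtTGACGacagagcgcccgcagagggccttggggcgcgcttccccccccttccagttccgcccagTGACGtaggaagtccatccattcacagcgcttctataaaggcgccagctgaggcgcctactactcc
Nr4a1, chr15:101266646-101266845, plus strand: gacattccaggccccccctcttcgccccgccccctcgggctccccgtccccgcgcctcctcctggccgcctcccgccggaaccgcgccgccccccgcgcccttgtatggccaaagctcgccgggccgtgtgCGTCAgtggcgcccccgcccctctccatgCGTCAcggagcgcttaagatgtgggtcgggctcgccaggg
Cyr61 (Ccn1), chr3:145649986-145650185, minus strand: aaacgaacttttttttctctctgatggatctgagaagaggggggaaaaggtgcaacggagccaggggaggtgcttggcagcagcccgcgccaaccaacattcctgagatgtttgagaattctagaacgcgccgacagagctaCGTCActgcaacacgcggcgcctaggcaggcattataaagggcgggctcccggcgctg
Egr2, chr10:67537669-67537868, plus strand: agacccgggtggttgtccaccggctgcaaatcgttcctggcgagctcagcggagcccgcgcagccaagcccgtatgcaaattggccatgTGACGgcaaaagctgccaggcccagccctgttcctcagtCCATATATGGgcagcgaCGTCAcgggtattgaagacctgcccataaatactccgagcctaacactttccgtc
Btg2, chr1:134079156-134079355, minus strand: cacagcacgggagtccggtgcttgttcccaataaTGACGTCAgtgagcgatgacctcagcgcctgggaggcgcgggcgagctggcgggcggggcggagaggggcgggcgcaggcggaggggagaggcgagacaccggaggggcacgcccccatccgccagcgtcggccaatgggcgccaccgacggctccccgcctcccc
Hspa1a, chr17:34972157-34972356, minus strand: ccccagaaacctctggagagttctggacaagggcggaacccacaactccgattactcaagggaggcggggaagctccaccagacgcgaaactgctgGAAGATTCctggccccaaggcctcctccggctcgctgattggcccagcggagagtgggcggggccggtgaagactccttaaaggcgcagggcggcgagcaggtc
Counted from the start, Fos has 2 half-sites, at -129 to -125 and -66 to -62, and Nr4a1 has 2, at -69 to -65 and -40 to -36. Cyr61 has 1, at -58 to -54, and the 2 of Btg2 overlap, at -166 to -162 and -163 to -159. Egr2, shown at the start with the most matches of its 5 annotated starts, has a CArG box at -72 to -63, between 2 half-sites. Hspa1a has 1 heat shock element, at -104 to -97.

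RefSeq windows of 250 bases before to 50 after the start could be matched to 32 of the 44 higher DE genes and to 16336 genes tested. The half-site occurred in 22 of the 32 (68.8%), against 27.7% of the genes tested. Jun (2.27), Zfp36 (1.49) and Ier3 (1.43), whose sequences are not shown, had windows without it. The CArG box occurred in 2 of 32 (Egr2 and Zfp36, 6.25% against 1.67%) and the AP-1 site TGANTCA in 2 of 32 (6.25% against 8.15%). The heat shock element was found in 5 of 32 (15.6% against 8.05%), among them Hspa1a and Hspa1b, and the E-box CACGTG, to which the clock factors bind, in 8 of 32 (25.0% against 9.38%), among them Ciart. A gene with several annotated starts counted when any of its windows held the motif. Such a match describes these letters and is not a binding site shown in kidney.

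The Egr and Nr4a families held the largest changes. Egr1, a zinc finger transcription factor of the early response, measured 10.73, 10.44 and 10.80 on the HCD+Gl-2 arrays of pools A, B and C and 6.71, 6.51 and 6.72 on the Control arrays (log2 values). The difference was 4.01 ± 0.48 (log2 fold change ± SE, n = 3 arrays a group; limma adjusted p = 4.9e-07), a 16.1-fold higher level. Nr4a1, an orphan nuclear receptor also called Nur77, measured 10.47, 10.05 and 10.62 against 6.82, 6.93 and 6.71, a difference of 3.56 ± 0.28 (limma adjusted p = 2.6e-11) or 11.8-fold. Both genes lay more than 3 log2 units apart between the groups on every pair of arrays.

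The relatives of Nr4a1 rose less but with little scatter. Nr4a2 measured 7.87, 7.59 and 7.69 in HCD+Gl-2 and 6.04, 6.18 and 6.20 in Control, and Nr4a3 measured 6.75, 6.39 and 6.83 against 5.07, 5.08 and 5.03. The log2 fold changes were 1.58 ± 0.10 and 1.60 ± 0.13 (limma adjusted p = 1.0e-13 and 3.6e-11). Egr2 measured 8.02, 7.54 and 8.28 against 6.14, 6.54 and 6.47 (1.56 ± 0.25). The family members Egr3 (0.14, adjusted p = 0.94 in limma) and Egr4 (0.06) did not pass the test. Together 5 of 7 measured members rose, against 0.503% of all genes, none fell, and the median was 1.58.

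Of the AP-1 family, whose members pair up to bind DNA, 5 of 9 rose and none fell, with a median of 0.86. Fos measured 8.85, 8.45 and 8.78 in HCD+Gl-2 and 5.73, 6.04 and 6.11 in Control (2.73 ± 0.32, a 6.64-fold higher level). Its partner Jun measured 9.50, 8.92 and 9.80 against 7.03, 7.08 and 7.29 (2.27 ± 0.31). Atf3, a repressor that pairs with Jun proteins, measured 8.02, 7.46 and 7.91 against 6.27, 6.56 and 6.46 (1.37 ± 0.14). Fosb (mean 7.78 against 6.58) and Junb (0.86 ± 0.13) also passed both thresholds. The other members did not pass the test, with Fosl2 at 0.39 (adjusted p = 0.063), Jund at 0.19, Batf at 0.12 and Fosl1 at -0.02.

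Among 16 other transcription factors of the early response, 5 rose and none fell (median 0.33). Ier2 measured 7.78, 7.39 and 7.82 against 6.05, 6.33 and 6.14 (1.49 ± 0.18). Csrnp1 (1.11 ± 0.11), Klf6 (0.73 ± 0.09) and the clock repressor Bhlhe40 (0.71 ± 0.13) were DE, and Mafk (0.35 ± 0.08) passed the adjusted p alone. Klf6 and Bhlhe40 were each called DE in 3 of the 6 fits without 1 array. Mafk passed in 1 of the 6 fits without 1 array. It did not pass with pools A and B only (limma adjusted p = 0.29) or with the 6 compared arrays (limma adjusted p = 0.091). Myc (0.31), Klf4 (0.04) and Klf2 (0.03) did not pass.

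Of 37 inhibitors that follow an early response, 10 rose, none fell and the other 27 did not pass, with a median of 0.35. Btg2, an antiproliferative protein, measured 9.29, 8.88 and 9.10 against 7.07, 6.98 and 6.97 (2.09 ± 0.21). Plk3, a stress-responsive kinase, measured 9.59, 8.87 and 9.71 against 7.50, 7.45 and 7.16 (2.01 ± 0.21). Zfp36, which destabilises mRNAs with AU-rich elements, measured 10.15, 9.81 and 10.26 against 8.57, 8.63 and 8.55 (1.49 ± 0.16). The next 3 were Ier3, a survival factor (8.70, 8.39 and 9.08 against 7.27, 7.36 and 7.24), Gem, a small GTPase that lowers calcium channel activity (8.07, 7.68 and 8.16 against 6.68, 6.75 and 6.54), and Dusp1, a phosphatase of the MAP kinases (12.03, 11.69 and 12.12 against 10.76, 10.75 and 10.75). The log2 fold changes of Ier3 and Gem were 1.43 and 1.32, and the means of Dusp1 were 11.95 and 10.75 (limma adjusted p = 0.00049). Socs2 (1.02 ± 0.14), which restrains growth hormone signalling, and Rcan1 (1.02 ± 0.17), which inhibits calcineurin, were DE as well, as was Gadd45g (0.85 ± 0.21). Gadd45g was called in 1 of the 6 fits without 1 array, and did not pass with pools A and B only (limma adjusted p = 0.14). Gadd45b (0.41) passed the adjusted p alone. Of the other inhibitors, Dusp6 measured 0.59 (adjusted p = 0.135), Socs3 -0.05 and Tnfaip3 -0.15.

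Secreted and matrix factors of the early response divided into a few large changes and many near 0. Of 21 measured, 5 rose and none fell (median 0.13). Cyr61 (Ccn1), a matrix protein that signals through integrins, measured 11.30, 10.73 and 11.50 in HCD+Gl-2 and 8.52, 8.57 and 8.58 in Control (2.62 ± 0.26). Hbegf, a ligand of the EGF receptor, rose by 1.08 ± 0.13, the protease Adamts1 by 0.90 ± 0.10 and the chemokine Cxcl1 by 0.72 ± 0.13. Cxcl1 was called DE in 4 of the 6 fits without 1 array. It did not pass with the 6 compared arrays alone (limma adjusted p = 0.058). With pools A and B only its log2 fold change was 0.57, under the fold threshold. Thbs1 (0.46 ± 0.12) passed the adjusted p alone. The cytokines Il6 (0.01), Ccl2 (0.07) and Cxcl2 (-0.09) did not pass, and the injury marker list, with Havcr1 at -0.02 and Lcn2 at -0.20, held no gene of 12 that passed the test.

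**Figure D2:**
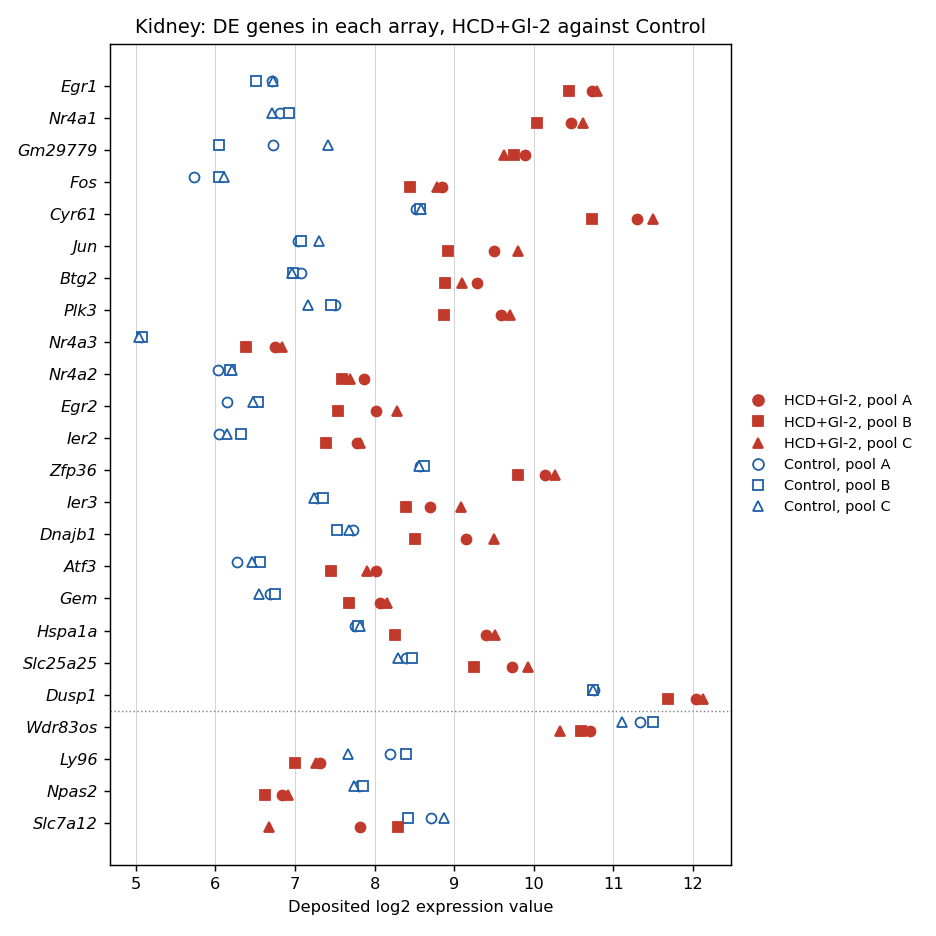
The x axis gives the deposited log2 value of each array for the 20 DE genes with the largest absolute log2 fold change and, under the dotted line, the 4 DE genes that were lower. Filled red marks are HCD+Gl-2, open blue marks Control, and the shape gives the pool; in every gene the 2 groups are apart, and pool B (squares) is the lowest of the 3 HCD+Gl-2 arrays in most of the higher genes.

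The 3 HCD+Gl-2 arrays differed among themselves in the size of the response. Pool B was the lowest of the 3 in 38 of the 44 higher DE genes (86.4%), against 34.9% of all genes. Pool C, which by the methods mixes A and B, lay between them in 8 of the 44, above both in 31 (70.5%) and below both in 5. Over all genes it lay above both in 40.2%. The Control arrays had pool C above both in 18 of the 44 (40.9%). All 3 HCD+Gl-2 arrays stayed above all Control arrays in each of these genes, which their call as DE favours.

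Heat shock genes rose in part. Of 22 cytosolic heat shock genes, 5 rose and 1 fell (median 0.10). Dnajb1, a co-chaperone of Hsp70, measured 9.15, 8.50 and 9.50 in HCD+Gl-2 against 7.73, 7.53 and 7.68 in Control (1.40 ± 0.28, limma adjusted p = 0.0044). The inducible Hsp70 gene Hspa1a measured 9.40, 8.26 and 9.51 against 7.75, 7.79 and 7.81 (1.27 ± 0.23). Pool B was the lowest HCD+Gl-2 array in both genes, and still above every Control array. Hspa1b rose by 1.09 ± 0.19, Dnajb4 by 1.03 ± 0.17 and Hspa8, the constitutive Hsp70, by 0.42 ± 0.09. Hspa1a and Hspa1b are near-identical copies whose probes may share signal, so their separate values are uncertain. Hsf1 itself fell by 0.37 on the log2 scale (SE 0.09, limma adjusted p = 0.046) and lost its call in all 6 fits without 1 array. Hsp90aa1 (0.08), Bag3 (0.09) and Hspb1 (-0.03) did not pass. With pools A and B only, in which each array stands for separate mice, Dnajb1, Hspa1a and Hspa1b no longer passed (limma adjusted p = 0.111, 0.102 and 0.0602).

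Of 19 genes of endoplasmic reticulum stress, Ddit3 (Chop) was the 1 that rose (0.44 ± 0.11, limma adjusted p = 0.037), and none fell. Ddit3 passed in 2 of the 6 fits without 1 array, and did not pass with the kidney arrays alone (limma adjusted p = 0.056) or with the 6 compared arrays (limma adjusted p = 0.17). The chaperones of that compartment did not pass, with Hspa5 (BiP) at -0.09, Hsp90b1 at -0.09 and Calr at -0.17. No gene passed the test among 15 targets of hypoxia-inducible factor (median 0.04) or 14 genes of the NRF2 antioxidant response and metallothioneins (median 0.02). Hmox1, the haem-degrading enzyme of that response, measured 0.16. Of 15 glucocorticoid receptor targets 1 rose, Zbtb16 (0.76 ± 0.19, limma adjusted p = 0.042), while Fkbp5 (0.49), Tsc22d3 (0.30) and Sgk1 (0.16) did not pass. Zbtb16 kept its call in none of the 6 fits that left out 1 array.

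**Figure D3:**
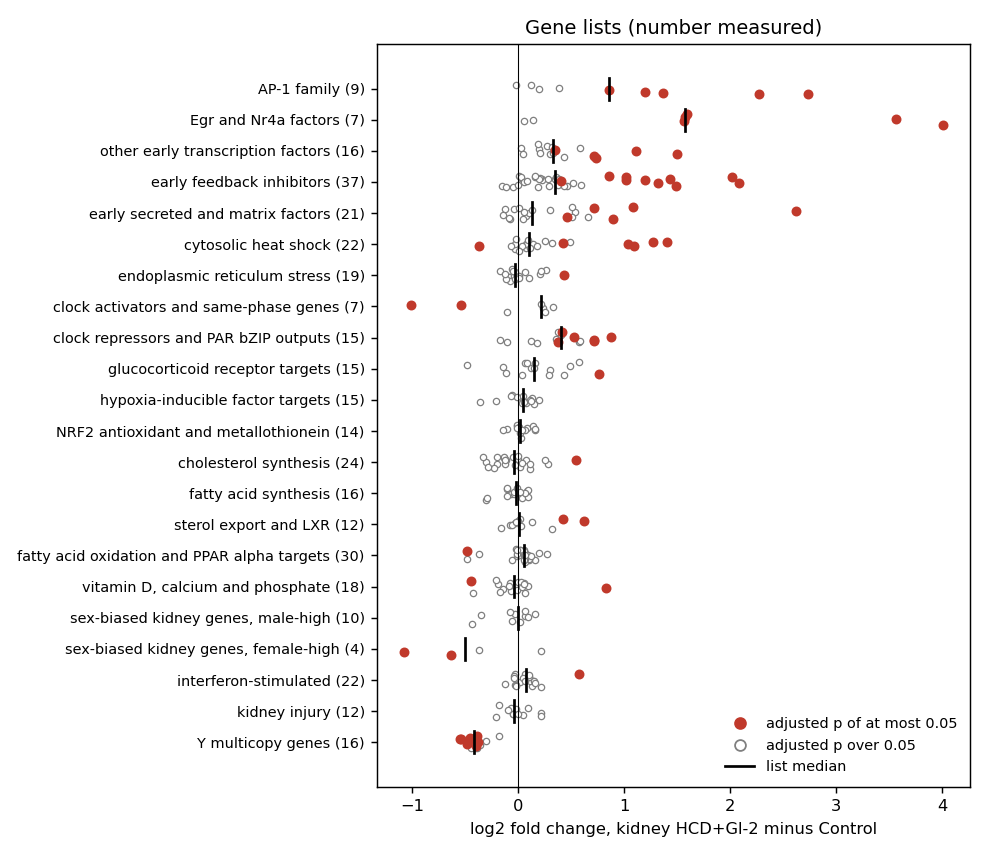
Each point is a gene of the list named on the y axis, with its kidney log2 fold change, HCD+Gl-2 minus Control, on the x axis; filled points passed an adjusted p of at most 0.05 and the black line is the list's median. The Egr and Nr4a list has the highest median (1.58) and the female-high list the lowest (-0.50), and the lipid lists lie around 0.

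Of 7 clock activators and genes of the same phase, 2 fell (against 0.371% of all genes) and none rose, with a median of 0.22. In 4 of the others every HCD+Gl-2 array lay above every Control array, as in 9.36% of all genes. Npas2, the partner of Arntl, measured 6.84, 6.62 and 6.91 in HCD+Gl-2 and 7.81, 7.86 and 7.74 in Control. It fell by 1.01 on the log2 scale (SE 0.19, limma adjusted p = 0.0016), and the groups were far apart against the spread within each. Arntl fell by 0.54 (SE 0.09, limma adjusted p = 0.000616), while Clock (-0.11) and Cry1 (0.26) did not pass.

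Among 15 repressors and outputs of the opposite phase, 6 rose and none fell (median 0.40). The largest was Ccrn4l (Noct), a deadenylase-related protein with a strong daily rhythm (0.87 ± 0.15), followed by Ciart (0.72 ± 0.18), Bhlhe40, Per2 (0.53 ± 0.11), Wee1 (0.41 ± 0.11) and Nr1d2 (0.37 ± 0.07). Per1, which is both a clock gene and an early response gene, measured 0.57 with overlapping arrays (adjusted p = 0.051). Nr1d1 (-0.17) and Hlf (-0.10) did not pass. Ciart lost its call in all 6 fits without 1 array and Wee1 in 5 of 6, while Npas2 and Arntl were called in all 6. With pools A and B only, 4 of the 6 no longer passed, Ccrn4l (0.60, limma adjusted p = 0.069), Ciart (0.078), Per2 (0.072) and Wee1 (0.095), and with the 6 compared arrays alone Ccrn4l, Per2 and Wee1 did not. Bhlhe40, Nr1d2, Npas2 and Arntl passed the adjusted p in both of these fits.

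Few genes of lipid metabolism, the subject of the study, passed the test in kidney. Of 24 genes of cholesterol synthesis and uptake none fell, and the median was -0.04. Hmgcs1 (0.26), Sqle (0.07) and Srebf2 (-0.13) did not pass. Of 16 genes of fatty acid synthesis none passed (median -0.02), with Fasn at 0.09 and Scd1 at -0.30.

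Of 12 sterol export and LXR genes, 2 rose. Mylip, a ubiquitin ligase induced by LXR, rose by 0.62 ± 0.11, and Abca1, the cholesterol exporter, by 0.42 ± 0.07 (limma adjusted p = 0.000767 and 0.000441). Both passed in all 6 fits without 1 array, but did not pass with the 6 compared arrays alone (limma adjusted p = 0.058 and 0.088). Abcg1 measured 0.32 (adjusted p = 0.056), and the median of the list was 0.01. Of 30 genes of fatty acid oxidation and PPAR alpha targets 1 fell, Ucp2 (fell by 0.48, SE 0.12, limma adjusted p = 0.046), with Cpt1a at 0.09 and Cyp4a10 at -0.06. Ucp2 passed in 1 of the 6 fits without 1 array.

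Genes of vitamin D, calcium and phosphate handling, for which the kidney is a main site, held 1 DE gene. Slc20a1, a sodium-phosphate cotransporter, rose by 0.83 ± 0.08 (limma adjusted p = 2.25e-09), whereas the main tubular phosphate carriers Slc34a1 (-0.08) and Slc34a3 (0.10) did not pass. Cyp24a1, which degrades active vitamin D, fell by 0.45 (SE 0.10, limma adjusted p = 0.020). It passed in 2 of the 6 fits without 1 array, and did not pass with pools A and B only (limma adjusted p = 0.076) or with the 6 compared arrays (limma adjusted p = 0.054). These were the 2 that passed the test among 18 (median -0.04).

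Slc7a12, an amino acid transporter that is higher in female than in male mouse kidney, had the largest decrease. It measured 7.82, 8.30 and 6.67 in HCD+Gl-2 and 8.71, 8.43 and 8.87 in Control, a fall of 1.07 on the log2 scale (SE 0.23, limma adjusted p = 0.0087). Pool C stood far below the other HCD+Gl-2 arrays, and without it the fall was 0.61 and was not called. It was also not called without Control pool A or Control pool C, nor with the kidney arrays alone (limma adjusted p = 0.1141) or with pools A and B only (fell by 0.51, limma adjusted p = 0.3227). Prlr, the prolactin receptor, fell by 0.63 (SE 0.16, limma adjusted p = 0.038), but passed in 1 of the 6 fits without 1 array and did not pass with pools A and B only (fell by 0.45, limma adjusted p = 0.29) or with the 6 compared arrays alone (limma adjusted p = 0.096). Of 4 female-high genes these 2 fell (median -0.50), and of 10 male-high genes, such as Kap (-0.03) and Slco1a1 (0.06), none passed.

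Ly96 (MD-2), the co-receptor of Tlr4, and Wdr83os, a small membrane protein, were the other DE genes that were lower. Ly96 measured 7.31, 7.00 and 7.27 in HCD+Gl-2 against 8.19, 8.40 and 7.67 in Control (fell by 0.89, SE 0.19). Wdr83os measured 10.70, 10.60 and 10.33 against 11.34, 11.50 and 11.10 (fell by 0.77, SE 0.13). Each lost its call in some fits without 1 array, Ly96 in 3 of 6 and Wdr83os in 2 of 6.

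Outside the lists, the largest increase was that of Gm29779, an unnamed gene model. It measured 9.90, 9.76 and 9.62 in HCD+Gl-2 and 6.72, 6.04 and 7.41 in Control (3.03 ± 0.43, limma adjusted p = 1.8e-05), so its Control arrays spread over more than 1 log2 unit. Slc25a25, a mitochondrial ATP-Mg/Pi carrier, measured 9.72, 9.25 and 9.92 against 8.40, 8.47 and 8.29 (1.25 ± 0.13). Coq10b (0.76 ± 0.08), which is needed for coenzyme Q function, Tmem252 (0.84 ± 0.16) and the ubiquitin ligase Rnf24 (0.74 ± 0.11) were DE too. Rnf24 was called in 4 of the 6 fits without 1 array and Tmem252 in 5. Tmem252 did not pass with the 6 compared arrays alone (limma adjusted p = 0.075). Rnu3a (1.16 ± 0.27), Snord14e (1.08 ± 0.15), Snora31 (0.92 ± 0.15) and Snord104 (0.82 ± 0.17) are small nucleolar RNAs, which guide the processing and modification of ribosomal and other RNAs. Rnu3a was called in 2 of the 6 fits without 1 array and Snord104 in 4. Neither passed with the kidney arrays alone (limma adjusted p = 0.146 and 0.082) or with the 6 compared arrays (limma adjusted p = 0.156 and 0.128).

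Because 4 of these DE genes were small nucleolar RNAs, all 68 genes with such names (Snora, Snord and Scarna, without Rnu3a) were counted, a set chosen after its values were seen. Of the 68, 9 passed the adjusted p upwards and none downwards, against 0.503% and 0.371% of all genes, and the median was 0.23. By the methods the first cDNA strand was primed with a poly(T) oligomer, and most mature small nucleolar RNAs carry no poly(A) tail and lie in introns of host genes. Whether the probes read the small RNAs or their host transcripts was not tested.

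Y-linked multicopy genes, which are mostly transcribed in testis and gave low signal here, were lower as a group. Of 16 measured, 8 fell and none rose, the range was -0.55 to -0.18 and the median -0.42. In 14 of the 16 every HCD+Gl-2 array lay below every Control array, against 8.96% of all genes. Gm20815 had the largest change (fell by 0.55, SE 0.10, limma adjusted p = 0.0019), and Sly fell by 0.40 (SE 0.09). The mean log2 value of the 16 genes was 4.30, 4.31 and 4.37 in HCD+Gl-2 and 4.76, 4.83 and 4.63 in Control. In HCD+Gl-1 it was 4.19, 4.22 and 4.30 and in HCD+Sim 4.43, 4.45 and 4.39, so it was the Control arrays that stood apart from all 3 cholesterol diets with a treatment. These genes are near-identical copies whose probes may share signal, so the 16 are not separate measurements.

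Cell type markers were compared between the 2 groups as well. Of 111 markers in 18 lists, 1 passed the test, the erythroid gene Alas2 (0.35 ± 0.08, limma adjusted p = 0.023). Alas2 passed in 1 of the 6 fits without 1 array, and did not pass with pools A and B only (limma adjusted p = 0.087) or with the 6 compared arrays (limma adjusted p = 0.071). The beta-globin gene Hbb-bs, on no list and named after its values were seen, also passed (0.46 ± 0.11, limma adjusted p = 0.023). Its call was not followed across the other fits. The 17 other lists, among them proximal tubule, podocyte, endothelium, stroma, macrophage and lymphocyte, held no called gene, and their medians lay between -0.09 and 0.12. The summed linear signal of the 18 proximal tubule markers was 66792 to 68823 in HCD+Gl-2 and 69773 to 71528 in Control, that of 5 loop of Henle markers 12438 to 12876 against 11124 to 11547, that of 5 macrophage markers 975 to 1012 against 961 to 1035, and that of the 2 erythroid markers 3121 to 3527 against 2537 to 2864. The first 2 and the last of these did not overlap between the groups, and the part of the erythroid, proximal tubule and loop of Henle signal in the results was not tested. Interferon-stimulated genes held 1 that rose of 22, Ifit3 (0.57 ± 0.12).

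The same HCD+Gl-2 arrays were compared with the kidneys of the other treated diets. Against HCD+Gl-1, 40 genes were DE (0.181%), 39 higher (0.177%) and 1 lower (0.00453%), and against HCD+Sim 49 (0.222%), 41 higher (0.186%) and 8 lower (0.0362%). These comparisons share the HCD+Gl-2 arrays with the one against Control, so their values are given side by side and their overlap was not counted. Egr1 was 4.01 over Control, 3.86 over HCD+Gl-1 and 3.22 over HCD+Sim, and Nr4a1 3.56, 3.41 and 3.24. For Fos the differences were 2.73, 2.57 and 2.35, and for Dnajb1 1.40, 1.33 and 1.14, all with a limma adjusted p of 0.0424 or less. The highest Egr1 value on any other kidney array on cholesterol was 7.88, against 10.44 on the lowest HCD+Gl-2 array. HCD+Gl-1 against Control gave 2 DE genes, both lower (0.00906%), and HCD+Sim against Control 7 (0.0317%).

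**Figure D4:**
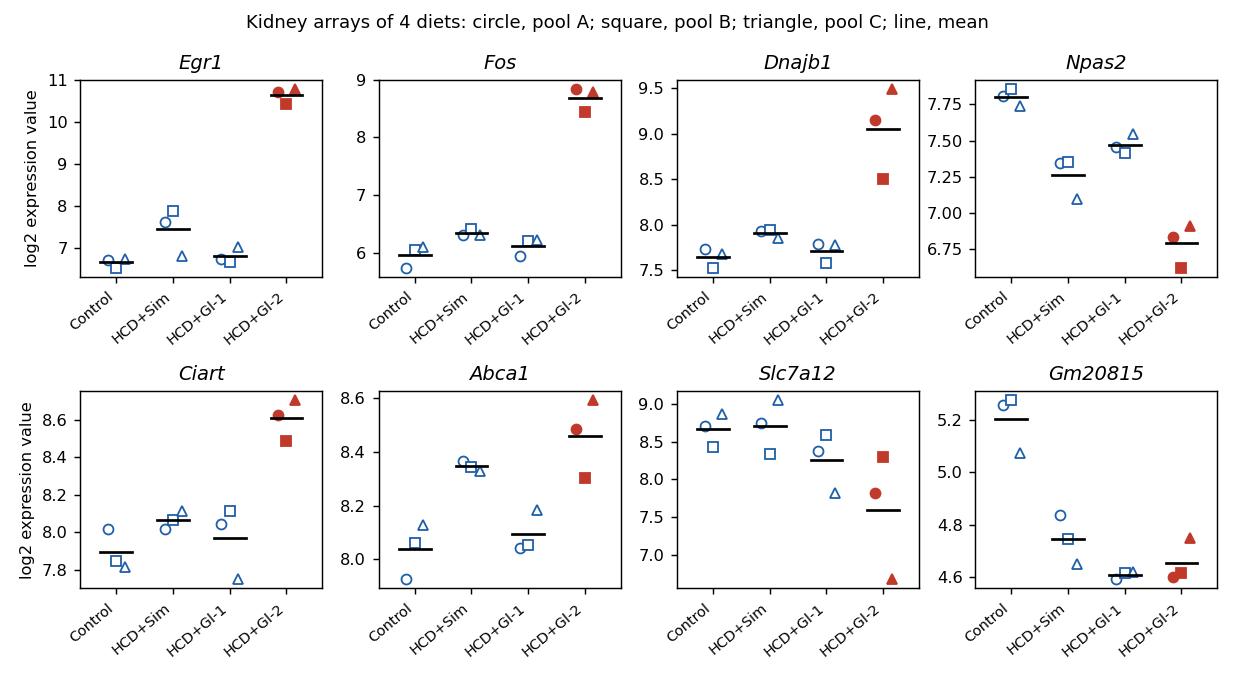
Each panel shows a gene's deposited log2 values on the kidney arrays of 4 diets, with a line at the mean of 3 arrays; the y axes differ and do not start at 0. In Egr1, Fos and Dnajb1, genes chosen for high values on the HCD+Gl-2 arrays, these arrays lie above those of the other diets shown, Npas2 lies between in HCD+Sim and HCD+Gl-1, Abca1 is 0.37 higher in HCD+Gl-2 than in HCD+Gl-1 and 0.11 higher than in HCD+Sim, and Gm20815 is high in Control only.

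Other genes did not pass the test against the other treated diets, or passed it against 1 of them. The clock gene Npas2, with means of 7.80 in Control, 7.47 in HCD+Gl-1 and 7.26 in HCD+Sim, was 0.68 lower in HCD+Gl-2 than in HCD+Gl-1 and 0.47 lower than in HCD+Sim, neither of which passed the test (limma adjusted p = 0.14 and 0.35). Ciart had a difference of 0.64 over HCD+Gl-1 and 0.54 over HCD+Sim (adjusted p = 0.16 and 0.22). Rnf24, 0.74 over Control, was 0.08 and 0.05 over the other diets. Abca1 (0.37, limma adjusted p = 0.0039) and Mylip (0.63, limma adjusted p = 0.000838) were higher than in HCD+Gl-1, as were 0.326% of all genes on the adjusted p alone, and did not pass against HCD+Sim (0.11 and 0.34). Cyp24a1 was the gene that was lower than in HCD+Gl-1 past both thresholds, by -0.92 ± 0.10, with a mean of 11.02 in HCD+Gl-1, 10.55 in Control and 10.10 in HCD+Gl-2.

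The livers of the same diets, on separate arrays made from the same groups of mice, gave 129 DE genes for HCD+Gl-2 against Control (0.584%), 67 higher (0.303%) and 62 lower (0.281%). Of the 44 genes higher in kidney, 18 were higher in liver (40.9% of the kidney list and 26.9% of the liver list), among them Egr1 (2.36), Fos (1.91), Jun (1.96), Atf3 (1.06), Dusp1 (1.09) and Hspa1b (0.82). Npas2 was lower in both tissues (-1.01 in kidney and -1.44 in liver). The difference between tissues was tested as an interaction in the same fit, which gave 84 DE genes (0.380%), 51 with a more positive (0.231%) and 33 with a more negative change in kidney (0.149%). The fit treated kidney and liver arrays as independent, although they come from the same groups of mice.

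Of the 48 kidney DE genes, 12 had a larger change in kidney than in liver. The 48 were picked for their change in kidney, which by itself favours larger changes there. The direction of this split is therefore not a result about the tissues. Nr4a1 rose by 3.56 in kidney and 1.39 in liver (difference 2.17 ± 0.39, limma adjusted p = 0.0017). Its relatives Nr4a2 (difference 1.24 ± 0.14) and Nr4a3 (1.29 ± 0.18) measured 0.34 and 0.30 in liver. Gem measured 1.32 in kidney and -0.11 in liver, Hbegf 1.08 and 0.05, and Cyr61 2.62 and 1.01. The difference for Egr1, 1.65, did not pass (adjusted p = 0.35), nor did that for Fos, 0.82 (adjusted p = 0.58), and none of the 48 had a smaller change in kidney past both thresholds.

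**Figure D5:**
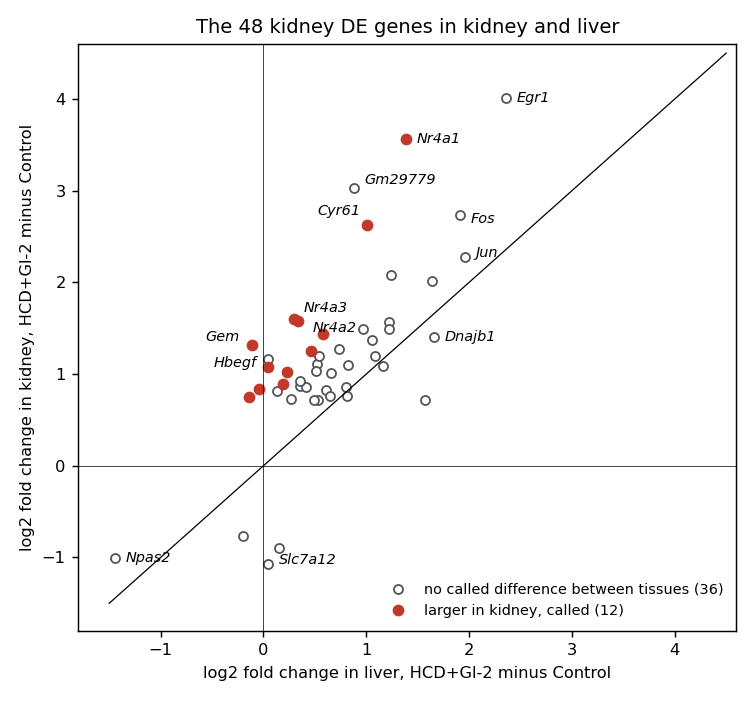
Each point is 1 of the 48 kidney DE genes, with its log2 fold change (HCD+Gl-2 minus Control) in liver on the x axis and in kidney on the y axis; on the diagonal both are equal. The 12 filled points had an interaction past both thresholds, and Gem, Hbegf, Nr4a2 and Nr4a3 lie near 0 or under 0.4 on the liver axis.

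Sterol genes differed between the tissues through their change in liver. There Cyp51 (-1.15), Sqle (-1.12) and Fdps (-1.12) were lower in HCD+Gl-2 than in Control, while in kidney they measured 0.11, 0.07 and -0.13, and the differences between tissues, 1.26, 1.19 and 0.99, passed both thresholds (limma adjusted p = 8.74e-06, 0.000267 and 0.0261). Over the 24 genes of cholesterol synthesis and uptake the median was -0.31 in liver and -0.04 in kidney. The clock outputs Usp2 (1.34 in liver, 0.18 in kidney) and Per3 (1.06 and 0.36) had larger increases in liver.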

How the data were processed

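Pooled RNA of liver, kidney and brain was hybridized to Affymetrix mouse gene st v1.0 arrays. The authors normalized the signals (RMA, quantile), corrected batches with ComBat, whose batches are not named in the sources used here, and kept 1 probe set for each gene, and they deposited log2 values. All 45 arrays entered 1 limma fit with a mean for each of the 15 groups (limma 3.58.1, R 4.3.3), with Benjamini-Hochberg adjustment over 22080 rows. Among them, 13 rows with names turned into dates and 2 repeated names were tested and not named, and a few other genes are not reported here. The number of arrays, 3 in a group from 2 separate pools, limits the precision. The p-values rest on the spread of arrays within groups, estimated over all 15 groups of the 3 tissues. The fit counts the 3 arrays of a group as independent, although pool C is pools A and B mixed. The p-values can therefore be too small for 2 separate pools. Tests of the model on simulated data were run first. Genes were named if DE or in 1 of 22 pathway and 18 marker lists, with Hbb-bs as the exception. Values of every array were given for the 20 largest changes and the lower DE genes. The members and lists were chosen with earlier results of these data known. Promoter windows are from RefSeq (GRCm38.p6). Alternatives were other sets of arrays, a replicate block, filters, normalization and thresholds. Summaries and figures used Python 3.11.15, pandas 2.3.3 and matplotlib 3.10.9.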

Additional observations from a re-analysis of the deposited data

Results flagged for a closer look

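Of the 84 genes whose change from Control to HCD+Gl-2 differed between kidney and liver in an interaction test (limma, absolute difference over 0.7 and adjusted p of at most 0.05), the 29 that were DE in kidney or on a gene list are given, and each value here is the kidney log2 fold change minus that of liver. Among genes DE in kidney the difference was 2.17 for Nr4a1, 1.61 for Cyr61, 1.43 for Gem, 1.29 for Nr4a3 and 1.24 for Nr4a2. It was 1.03 for Hbegf, 0.89 for Rnf24, 0.88 for Tmem252, 0.85 for Ier3, 0.79 for Socs2, 0.78 for Slc25a25 and 0.70 for Adamts1.

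Among list genes that were not DE in kidney, genes of sterol synthesis were lower in liver in HCD+Gl-2 and changed less in kidney. The difference was 1.26 for Cyp51, 1.19 for Sqle, 1.04 for Nsdhl, 1.02 for Hmgcs1, 0.99 for Fdps and 0.77 for Dhcr7. Their kidney log2 fold changes ranged from -0.33 (Nsdhl) to 0.26 (Hmgcs1). Genes of fatty acid synthesis and its supply of NADPH and acetyl-CoA differed in the same direction, by 1.17 for G6pdx, 1.11 for Acss2, 0.99 for Acacb, 0.82 for Me1 and 0.81 for Elovl5. The smooth muscle actin Acta2 differed by 0.85. The liver was higher and the kidney changed less for the clock output genes Usp2 (-1.16) and Per3 (-0.70), the early factor Klf10 (-1.04), the metallothionein Mt2 (-1.24) and the adrenal steroid enzyme Cyp21a1 (-0.96).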

How the results depend on the processing

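Every one of the 48 DE genes kept its direction under every alternative. The count of DE genes was 47 with the kidney arrays alone, 40 with the 6 compared arrays, 51 with pools A and B only and 40 to 51 with 1 array left out, and 34 of the 48 were called in each of those 6 fits. With pools A and B only, 39 of the 48 were kept, 9 were lost and 12 others were called. With the 6 compared arrays 39 were kept and 9 lost, and with the kidney arrays alone 45 were kept. It was 193 with no fold threshold and 31 with a log2 fold change over 1. The count on the adjusted p alone, 193, became 366 with the kidney arrays, 112 with the 6 arrays and 94 to 181 with 1 array left out. With no fold threshold, the comparison with HCD+Gl-1 gave 87 genes in place of 40, that with HCD+Sim 149 in place of 49 and the kidney and liver difference 164 in place of 84. A log2 fold change over 1 left 30 against HCD+Sim and 33 in the kidney and liver difference. The last was 51 with the compared arrays alone and 141 with pools A and B only. With 1 array left out, it was 63 to 115, the comparison with HCD+Gl-1 36 to 47 and that with HCD+Sim 38 to 56. The cause of these moves was not tested, beyond the thresholds themselves. Pool letters did not pair the groups (correlation of deviations -0.017, -0.042 and -0.11 for A, B and C). With the letter as a replicate block the counts were 49 against Control (207 on the adjusted p alone), 40 against HCD+Gl-1, 49 against HCD+Sim and 87 for the difference between tissues. Among genes named on the adjusted p alone, Gadd45b, Thbs1 and Hsf1 lost their call in all 6 fits without 1 array.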
